A study of Homo sapiens with 8 samples.

Results

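Expression of 9 genes of the epithelial-mesenchymal transition (EMT) was examined in the RNA-seq libraries of 2 ovarian cancer cell lines. The 9 genes were listed by name, with no threshold on their values, although earlier results of these data were known. They are the cadherins CDH1 and CDH2, the transcription factors SNAI1, SNAI2, ZEB1, ZEB2 and TWIST1, the intermediate filament vimentin (VIM) and the matrix protein fibronectin (FN1). All 9 were found among the 20339 genes of the count table. Each exceeded 3 counts in at least 1 library, and 6 of them did so in all 8 libraries.

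The study asked what Matrix Gla Protein (MGP), a secreted matrix protein, does in ovarian cancer stem cells (OCSC). OVCAR3 cells (passage 4) carried a CRISPR-Cas9 knockout of MGP made with a pair of guides on a GFP plasmid, sorted and isolated as clones (OVCAR3-MGPKO) or served as control (OVCAR3-CTR). COV318 cells (passage 18) were transduced with a lentivirus that carried either the human MGP cDNA (COV318-MGP) or no insert (COV318-CTR). Both were obtained by puromycin selection. Each of these 4 populations was sequenced as adherent bulk cells in serum and as second-generation spheres, labelled OCSC, which were grown unattached without serum in medium with B27, EGF and FGF2. The study kept several clones of both OVCAR3 arms, and which of them were sequenced is not given in the sources used here. Both are established lines from ascites, labelled as epithelial cells.

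EMT is the shift of an epithelial cell towards a motile, matrix-producing state. Its transcription factors of the SNAI, ZEB and TWIST families repress CDH1, which encodes E-cadherin, the adhesion molecule of epithelial junctions. N-cadherin (CDH2), vimentin and fibronectin are the usual mesenchymal readouts, although many carcinoma cells carry epithelial and mesenchymal genes at once.

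There was 1 library per condition, so no comparison of 2 libraries had a replicate check or a p-value. Levels are normalized counts, that is counts divided by the size factor of the library, and intervals in square brackets are 95% intervals of counting error alone. Log2 fold changes (log2FC) were taken after adding 1 to the normalized count. A gene was called higher or lower when its log2FC reached 1 in size, a 2-fold difference, and at least 1 of its 2 counts exceeded 3. Total counts on genes ranged from 12294591 to 37393919 per library. In bulk RNA, fewer cells of a type and less RNA per cell cannot be told apart.

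The libraries were first checked against their labels. In COV318-MGP, bulk cells gave 40393 MGP counts and OCSC 28694, where the control arm gave 1 and 0. In OVCAR3 the gene had between 0 and 2 counts in the libraries of both labels, so MGP does not tell OVCAR3-CTR from OVCAR3-MGPKO. A list of 10 genes of ovarian carcinoma epithelium was above 3 counts for 10 of 10 genes in the 6 other libraries and for 4 of 10 in each COV318-MGP library, where the lineage factors PAX8 and SOX17 and the keratin KRT7 stood at 0 counts. The summed level of that list was 41323 normalized counts in COV318-CTR bulk and 1782 in COV318-MGP bulk, and 16332 and 8350 in the OCSC. The neurofilament genes NEFL and NEFM, part of a list of 8 genes of the HEK293 lineage, were at 0 counts in bulk COV318-CTR cells and at 2564 and 891 in those of COV318-MGP. That whole list had 5 of 8 genes above 3 counts in both bulk libraries, with sums of 12879 in COV318-CTR and 4694 in COV318-MGP, and its member DPPA4 had 19621 counts in the former and 2 in the latter. Of 5 mesothelial genes in the table, 5 were above 3 counts in COV318-CTR bulk and 1 in COV318-MGP bulk, with sums of 8137 and 3.85. The keratins KRT8 and KRT18 of the first list remained, at 306 and 1415 normalized counts in COV318-MGP bulk and 1407 and 6886 in its OCSC. In COV318-CTR they stood at 645 and 19421 in bulk and at 158 and 3561 in OCSC. The libraries labelled COV318-MGP thus lacked lineage markers that COV318-CTR held but kept RNA of KRT8 and KRT18. These keratins alone do not settle whether the epithelial label holds. In every comparison of the COV318 arms below, an effect of added MGP cannot be told apart from other differences between the cells, their identity included. Comparisons between lines and between cultures are therefore also given without the COV318-MGP libraries.

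CDH1 separated the lines. It stood at 4791 normalized counts in OVCAR3-CTR bulk, 2836 in OVCAR3-MGPKO bulk, 9217 in OVCAR3-CTR OCSC and 4365 in OVCAR3-MGPKO OCSC. In COV318 it reached 272 in CTR bulk, 229 in MGP bulk, 369 in CTR OCSC and 142 in MGP OCSC. The lines did not overlap, and the lowest OVCAR3 library was 7.69-fold above the highest COV318 library. Gene positions are those of GENCODE 44 on GRCh38, and CDH1 is at 68737292 to 68835537 of chromosome 16, plus strand.

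CDH2 (chromosome 18, 27932879 to 28177946, minus strand) was present in every library. Its level was 1089 in OVCAR3-CTR bulk, 1038 in OVCAR3-MGPKO bulk, 3753 in OVCAR3-CTR OCSC and 4226 in OVCAR3-MGPKO OCSC. The COV318 libraries held 5753 in CTR bulk, 4846 in MGP bulk, 3700.3 in CTR OCSC and 5576 in MGP OCSC. Both OVCAR3 bulk libraries were below all the others, whereas the OVCAR3 OCSC fell inside the range of COV318. The OVCAR3 libraries thus held RNA of both cadherins.

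SNAI1 (Snail; chromosome 20, 49982980 to 49988886, plus strand) was higher in OVCAR3, the line with more CDH1. It stood at 125 normalized counts in OVCAR3-CTR bulk, 156 in OVCAR3-MGPKO bulk, 344 in OVCAR3-CTR OCSC and 187 in OVCAR3-MGPKO OCSC. The COV318 values were 31.8 in CTR bulk, 12.1 in MGP bulk, 50.5 in CTR OCSC and 44.4 in MGP OCSC, which rest on 22 to 59 counts. The lines did not overlap, by 2.47-fold at their nearest libraries.

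SNAI2 (Slug), the relative of SNAI1, was seen in the COV318-MGP libraries and almost nowhere else. It had 608 counts (334 normalized) in COV318-MGP bulk and 110 counts (157 normalized) in COV318-MGP OCSC. It had 1 count in COV318-CTR OCSC and 0 counts in the 5 other libraries. With 3 counts taken as the limit for a count of 0, the level can be up to 1.62 normalized counts in COV318-CTR bulk and up to 4.63 in OVCAR3-CTR bulk.

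ZEB1 and ZEB2 encode zinc finger repressors that bind E-boxes of epithelial genes. ZEB1 (chromosome 10, 31318495 to 31529814, plus strand) had 0, 0, 0 and 1 counts in the 4 OVCAR3 libraries. Its level in COV318 was 455 normalized counts in CTR bulk, 796 in MGP bulk, 603 in CTR OCSC and 1099 in MGP OCSC. ZEB2 (chromosome 2, 144364364 to 144521057, minus strand) had between 3 and 8 counts in the OVCAR3 libraries. Its level in COV318 was 129 in CTR bulk, 675 in MGP bulk, 83.2 in CTR OCSC and 872 in MGP OCSC. Both genes separated the lines, ZEB1 near the limit of detection in OVCAR3 and ZEB2 with its lowest COV318 library 11.9-fold above the highest OVCAR3 library. Of the 9 genes all but SNAI1 and FN1 overlap annotated antisense genes, ZEB1-AS1, ZEB2-AS1 and VIM-AS1 among them, and whether the counting used the strand is not given in the sources used here.

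TWIST1 (chromosome 7, 19020991 to 19117636, minus strand), a basic helix-loop-helix factor, had the narrowest range of the 9 genes. It stood at 67.8 normalized counts in OVCAR3-CTR bulk, 186 in OVCAR3-MGPKO bulk, 202 in OVCAR3-CTR OCSC and 177 in OVCAR3-MGPKO OCSC. In COV318 the values were 214 in CTR bulk, 133 in MGP bulk, 131 in CTR OCSC and 251 in MGP OCSC. The lines overlapped, and OVCAR3-CTR bulk was the low library.

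VIM (chromosome 10, 17228241 to 17237593, plus strand) spanned the widest range of the genes above 3 counts in all libraries. OVCAR3-CTR bulk held 35.5 normalized counts, OVCAR3-MGPKO bulk 108, OVCAR3-CTR OCSC 298 and OVCAR3-MGPKO OCSC 2499. COV318 held 11782 in CTR bulk, 13625 in MGP bulk, 4311 in CTR OCSC and 22544 in MGP OCSC. The lines did not overlap, although OVCAR3-MGPKO OCSC came within 1.73-fold of COV318-CTR OCSC.

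FN1 (chromosome 2, 215360440 to 215436073, minus strand) varied with culture in both lines. It stood at 455 normalized counts in OVCAR3-CTR bulk, 339 in OVCAR3-MGPKO bulk, 4781 in OVCAR3-CTR OCSC and 4868 in OVCAR3-MGPKO OCSC. In COV318 it stood at 13351 in CTR bulk, 3107 in MGP bulk, 739 in CTR OCSC and 7802 in MGP OCSC. The 2 OVCAR3 bulk libraries were the lowest of all 8, with COV318-CTR OCSC next.

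**Figure D1:**
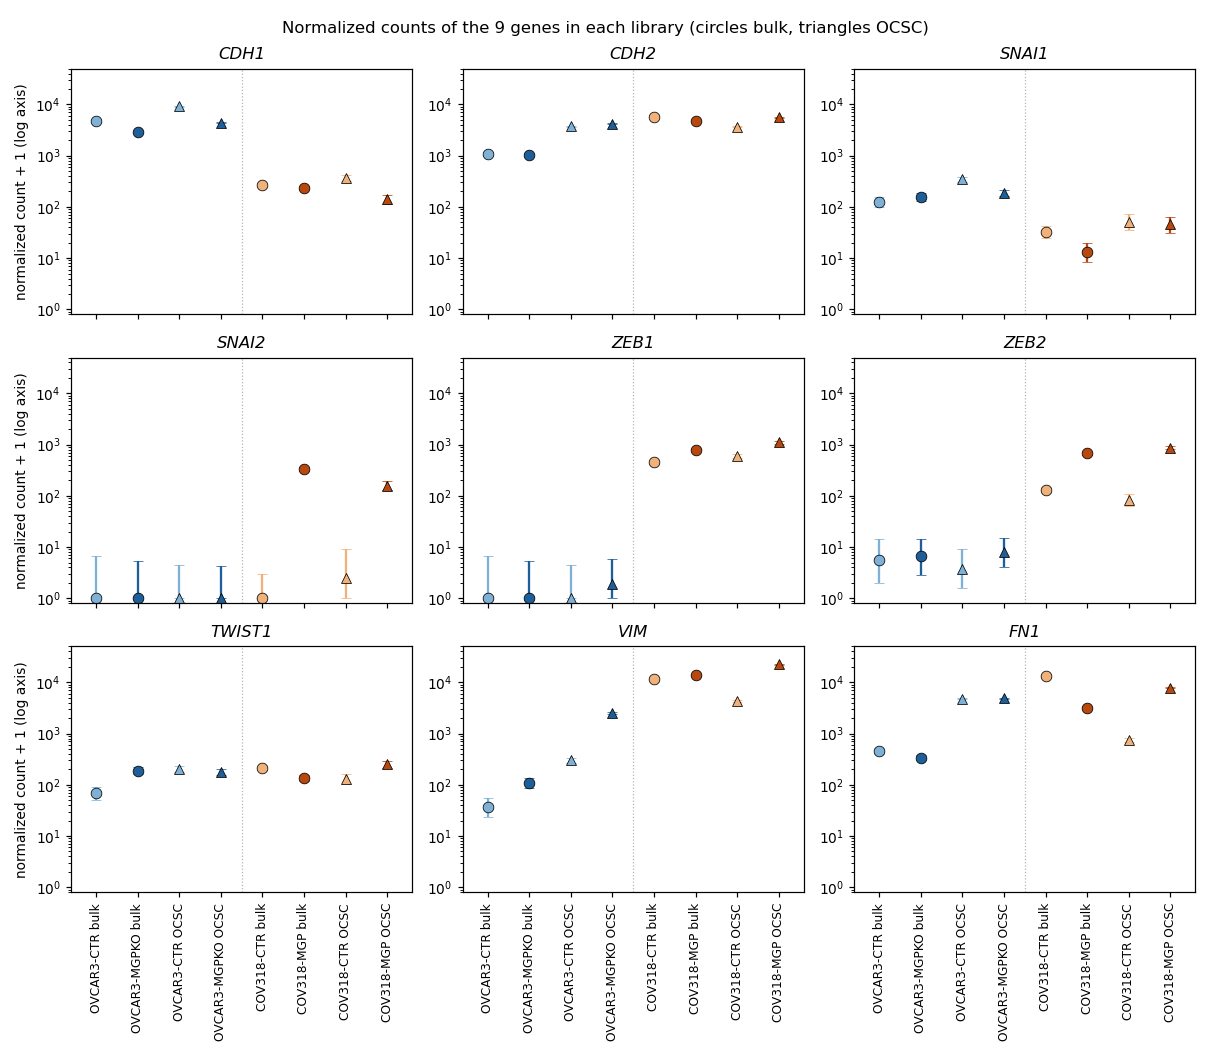
Normalized counts plus 1 (log axis) of the 9 genes in the 8 libraries, with 95% counting intervals; circles are bulk and triangles OCSC, blue shades OVCAR3 and orange shades COV318. CDH1 and SNAI1 lie higher in OVCAR3, ZEB1, ZEB2 and VIM lie higher in COV318, and SNAI2 rises above its floor in the COV318-MGP libraries.

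In all, 5 of the 9 genes had lines that did not overlap, 2 of them higher in OVCAR3 and 3 higher in COV318. Among all 20339 genes 31.5% did not overlap, 16.6% with OVCAR3 above and 14.9% with COV318 above. The same 5 did not overlap when both COV318-MGP libraries were left out, where 60.4% of all genes above 3 counts did not overlap. Per kilobase of the reference transcript, CDH1 had the highest level of the 9 genes in 3 of the 4 OVCAR3 libraries. VIM took that place in OVCAR3-MGPKO OCSC and in all 4 COV318 libraries, where its level was 2001 to 10466 normalized counts per kilobase.

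Ratios of 2 genes within a library need no size factor. CDH2 over CDH1, in counts per kilobase, was 0.272 [0.250 to 0.295] in OVCAR3-CTR bulk, 0.438 [0.406 to 0.473] in OVCAR3-MGPKO bulk, 0.488 [0.470 to 0.506] in OVCAR3-CTR OCSC and 1.16 [1.11 to 1.21] in OVCAR3-MGPKO OCSC. The intervals exclude 1 in all 4, but they do not cover the choice of transcript lengths. Per kilobase, N-cadherin RNA exceeded E-cadherin RNA only in the last of these OVCAR3 libraries. There CDH2 had 4834 counts and CDH1 4992, so the order rests on the lengths used. In COV318 the ratio was 25.3 in both bulk libraries, 12.03 in CTR OCSC and 47.1 in MGP OCSC. VIM over CDH1 was 0.0165 in OVCAR3-CTR bulk and 1.28 in OVCAR3-MGPKO OCSC, and 26.1 to 355 in COV318. FN1 over VIM ran the other way, with 3.29 in OVCAR3-CTR bulk, 4.12 in OVCAR3-CTR OCSC, 0.806 and 0.5002 in the OVCAR3-MGPKO libraries, and 0.0440 to 0.291 in COV318.

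**Figure D2:**
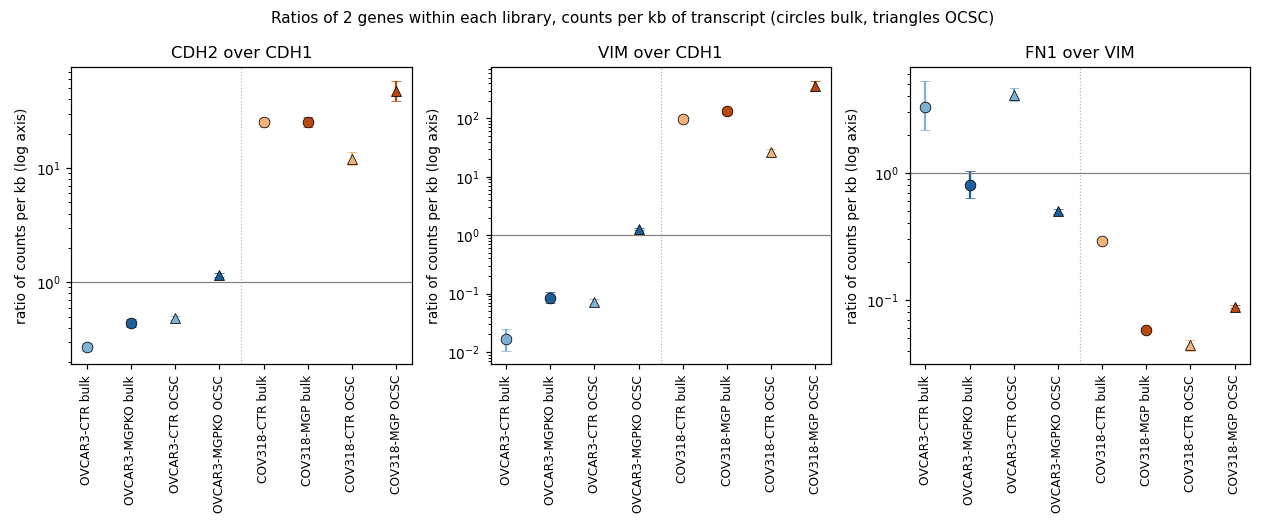
Ratios of counts per kilobase of transcript within each library (log axis) with 95% counting intervals, for CDH2 over CDH1, VIM over CDH1 and FN1 over VIM; circles are bulk and triangles OCSC. OVCAR3-MGPKO OCSC is the single OVCAR3 library above 1 for CDH2 over CDH1 (1.16) and for VIM over CDH1 (1.28).

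Windows of 250 bases before to 50 after the start site were read from RefSeq (GRCh38.p14) for the 5 of the 9 genes that the table lists, which are CDH2, ZEB1, ZEB2, VIM and FN1. For ZEB1 the window nearest its annotated start was taken. Those of FN1, VIM and ZEB1 are shown because FN1 and VIM had the largest folds between cultures and ZEB1 is the factor closest to all or nothing between the lines. Capitals mark 4 motifs searched on both strands, the E-box CAGGTG or CACCTG, the cAMP response element TGACGTCA, the GC box GGGCGG or CCGCCC, and the CCAAT box CCAAT or ATTGG.
FN1, chr2:215436019-215436318, minus strand: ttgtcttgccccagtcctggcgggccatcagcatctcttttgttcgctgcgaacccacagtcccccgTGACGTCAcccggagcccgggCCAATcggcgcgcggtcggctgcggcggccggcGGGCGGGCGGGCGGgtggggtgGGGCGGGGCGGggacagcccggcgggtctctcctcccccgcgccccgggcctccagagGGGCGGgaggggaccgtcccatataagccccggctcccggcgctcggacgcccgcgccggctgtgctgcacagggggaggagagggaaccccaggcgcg
VIM, chr10:17227991-17228290, plus strand: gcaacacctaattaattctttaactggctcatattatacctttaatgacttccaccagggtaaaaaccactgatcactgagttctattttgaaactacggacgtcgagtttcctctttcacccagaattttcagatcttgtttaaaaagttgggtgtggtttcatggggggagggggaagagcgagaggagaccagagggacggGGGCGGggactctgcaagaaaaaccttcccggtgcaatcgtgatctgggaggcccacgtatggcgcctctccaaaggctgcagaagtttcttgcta
ZEB1, chr10:31318167-31318466, plus strand: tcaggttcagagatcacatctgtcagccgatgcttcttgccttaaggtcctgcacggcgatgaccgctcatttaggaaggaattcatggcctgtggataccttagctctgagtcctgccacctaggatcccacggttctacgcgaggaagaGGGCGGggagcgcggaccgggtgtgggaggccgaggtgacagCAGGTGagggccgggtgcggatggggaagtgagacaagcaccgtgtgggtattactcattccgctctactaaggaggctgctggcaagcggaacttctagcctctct
FN1 held the cAMP response element 183 bases before the start, a CCAAT box 162 bases before it and 6 GC box matches, of which some overlap. VIM held 1 GC box 46 bases before the start. ZEB1 held 1 E-box, the sequence that SNAI and ZEB factors bind, 57 bases before the start, and 1 GC box 99 bases before it. The starts meant here are those of the RefSeq windows. They need not fall at the GENCODE gene ends given above, and that of ZEB1 does not. The window of CDH2 held a GC box and a CCAAT box, and that of ZEB2 none of the 4. Of the 35116 windows in the table, 20.6% held an E-box of these letters, 1.85% the cAMP response element, 45.0% a GC box and 34.6% a CCAAT box.

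The first question of the design is what loss of MGP does in OVCAR3. MGP RNA was at 0 to 2 counts across both arms, and the clones sequenced are not given. In every comparison of the OVCAR3 arms, an effect of MGP loss cannot be told apart from other differences between the cells. In bulk cells, the library that carries the OVCAR3-MGPKO label held more vimentin and TWIST1 RNA. VIM had 94 counts against 23 in OVCAR3-CTR, a log2FC of 1.58 [0.94 to 2.33], and TWIST1 162 against 44, a log2FC of 1.44 [0.97 to 1.97]. The other genes stayed within 2-fold, with CDH1 at -0.76 [-0.83 to -0.68] and FN1 at -0.42 [-0.66 to -0.19]. Of the 7 genes above 3 counts, 2 were higher and 0 lower, where 15.1% of all genes tested were higher, 9% lower and 24.1% either.

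In OCSC, OVCAR3-MGPKO held more vimentin and less E-cadherin RNA than OVCAR3-CTR. VIM had 2858 counts against 319, an 8.39-fold difference and a log2FC of 3.06 [2.90 to 3.24]. CDH1 had 4992 counts against 9874, a log2FC of -1.08 [-1.13 to -1.03], which was -0.95 when the libraries were scaled to their totals. SNAI1, within 2-fold, was at -0.87 [-1.13 to -0.63], and TWIST1, which differed in bulk, was at -0.19 [-0.48 to 0.09]. FN1 was nearly equal, at 0.03 [-0.03 to 0.08], and so was CDH2, at 0.17 [0.11 to 0.23]. ZEB2 passed the 2-fold mark on 8 against 3 counts, and its interval of -0.74 to 3.87 includes no difference. Of the 7 genes above 3 counts, 2 were higher and 1 lower, where 9.17% of all genes tested were higher, 5.69% lower and 14.9% either. VIM was thus the gene that passed 2-fold in both OVCAR3 cultures.

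The second question of the design concerns added MGP in COV318. In bulk cells, SNAI2 and ZEB2 were higher in the library labelled COV318-MGP than in COV318-CTR while FN1 and SNAI1 were lower. SNAI2 had 608 counts against 0, which is 207-fold higher if the control library is set at the floor of 3 counts. The lower end of its counting interval is a log2 ratio of 7.39. ZEB2 had 1228 against 239, a log2FC of 2.38 [2.19 to 2.60]. FN1 had 5650 against 24788, a log2FC of -2.10 [-2.15 to -2.06]. SNAI1 had 22 against 59, a log2FC of -1.32 [-2.17 to -0.66]. ZEB1 was at 0.81 [0.68 to 0.93], and at 1.10 when the libraries were scaled to their totals, which takes it past 2-fold. CDH1 (-0.25), CDH2 (-0.25), VIM (0.21) and TWIST1 (-0.68) were within 2-fold. Of the 9 genes 2 were higher and 2 lower, where 24.5% of all genes tested were higher, 26.3% lower and 50.8% either.

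In COV318 OCSC, 4 genes were higher in COV318-MGP and CDH1 was lower. FN1 had 5450 counts against 497, a 10.6-fold difference and a log2FC of 3.40 [3.27 to 3.54]. ZEB2 had 609 against 56, a log2FC of 3.37 [2.99 to 3.81], and VIM 15748 against 2901, a log2FC of 2.39 [2.33 to 2.44]. SNAI2 had 110 counts against 1, a ratio of 106 whose log2 lies between 4.22 and 12.04 by counting error. CDH1 had 99 counts against 248, a log2FC of -1.37 [-1.73 to -1.04]. TWIST1 (0.93 [0.56 to 1.32]), ZEB1 (0.86 [0.69 to 1.04]) and CDH2 (0.59 [0.52 to 0.66]) were higher by less than 2-fold, and SNAI1 was at -0.18 [-0.94 to 0.56]. Of the 9 genes 4 were higher and 1 lower, where 27% of all genes tested were higher, 27.3% lower and 54.2% either. In both cultures of this line, the shares of the 9 genes past 2-fold stood beside a background in which at least 50.8% of genes were past 2-fold.

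Relative to ZEB1, ZEB2 was more abundant in the COV318-MGP libraries than in their controls. ZEB2 over ZEB1, in counts per kilobase, was 0.181 [0.157 to 0.210] in COV318-CTR bulk and 0.544 [0.504 to 0.587] in COV318-MGP bulk. In OCSC it was 0.0884 [0.0656 to 0.117] and 0.508 [0.456 to 0.566]. ZEB1 therefore remained the more abundant of the pair per kilobase in all 4 COV318 libraries.

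The differences between arms can be set side by side for the cultures. In COV318 the log2FC of FN1 in OCSC exceeded that in bulk by 5.50, that of VIM by 2.18 and that of TWIST1 by 1.61, while for CDH1 it was below it (-1.13). ZEB1 differed between cultures by 0.06 and ZEB2 by 0.99. In OVCAR3 the log2FC of VIM in OCSC exceeded that in bulk by 1.48, and for TWIST1 it was below it (-1.63). With 1 library per condition these differences could not be tested.

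**Figure D3:**
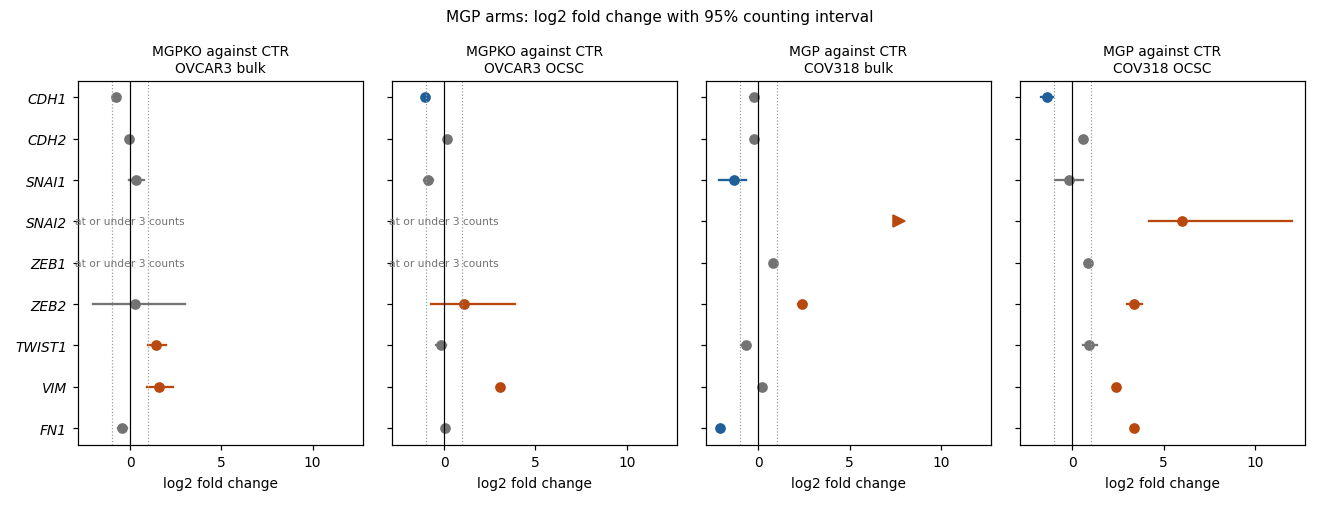
Log2 fold change of the 9 genes in the MGP-manipulated library against its control, in each line and culture, with 95% counting intervals; orange points are at least 2-fold higher, blue at least 2-fold lower, the triangle is a lower bound and dotted lines mark 2-fold. FN1 changes side between COV318 bulk (-2.10) and COV318 OCSC (3.40), and VIM is higher in both OVCAR3 panels (1.58 and 3.06).

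The third question is how spheres differ from bulk cells. In OVCAR3-CTR, 5 of the 6 genes above 3 counts were higher in OCSC. FN1 had 5122 counts against 295, a log2FC of 3.39 [3.22 to 3.57], and VIM 319 against 23, a log2FC of 3.03 [2.46 to 3.75]. CDH2 (1.78 [1.67 to 1.90]), TWIST1 (1.56 [1.10 to 2.07]) and SNAI1 (1.45 [1.11 to 1.83]) were also higher. CDH1 was higher as well, at 0.94 [0.89 to 1.003], just inside 2-fold, so that the epithelial and the mesenchymal cadherin had more RNA in the spheres together. None of the 6 was lower, where 14.3% of all genes tested were higher, 13.2% lower and 27.5% either.

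In OVCAR3-MGPKO, OCSC held more VIM, FN1 and CDH2 RNA than bulk. VIM had 2858 counts against 94, a 23.1-fold difference and a log2FC of 4.52 [4.24 to 4.84]. FN1 had 5568 against 295, a log2FC of 3.84 [3.67 to 4.02], and CDH2 4834 against 903, a log2FC of 2.03 [1.92 to 2.13]. CDH1 was at 0.62 [0.55 to 0.69], SNAI1 at 0.26 [-0.06 to 0.58] and TWIST1 at -0.08 [-0.38 to 0.23]. Of the 7 genes above 3 counts 3 were higher and 0 lower, where 8.33% of all genes tested were higher, 10.8% lower and 19.2% either.

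COV318-CTR showed the opposite for the matrix and filament genes. FN1 had 497 counts in OCSC against 24788 in bulk, an 18.1-fold lower level and a log2FC of -4.17 [-4.31 to -4.05]. VIM had 2901 against 21874, a log2FC of -1.45 [-1.51 to -1.39]. TWIST1 (-0.71), CDH2 (-0.64) and ZEB2 (-0.62) were lower within 2-fold, while SNAI1 (0.65), CDH1 (0.44) and ZEB1 (0.41) were higher within 2-fold. Of the 8 genes above 3 counts 0 were higher and 2 lower, where 10.9% of all genes tested were higher, 10.1% lower and 21% either.

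In COV318-MGP, SNAI1 and FN1 were higher in OCSC and SNAI2 was lower. SNAI1 had 31 counts against 22 in the deeper bulk library, a log2FC of 1.79 [1.04 to 2.73]. FN1 had 5450 against 5650, a log2FC of 1.33 [1.27 to 1.38]. SNAI2 had 110 against 608, a log2FC of -1.08 [-1.39 to -0.79]. VIM (0.73), TWIST1 (0.91), ZEB1 (0.47) and ZEB2 (0.37) were higher within 2-fold and CDH1 was lower within it (-0.69). Of the 9 genes 2 were higher and 1 lower, where 10.3% of all genes tested were higher, 9.36% lower and 19.6% either. Of all genes past 2-fold here 52.3% were higher, and 35.04% or 42.6% with scaling to totals or by TMM, the trimmed mean of M values. These 8 comparisons share libraries, since each library enters one comparison of arms and one of cultures.

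**Figure D4:**
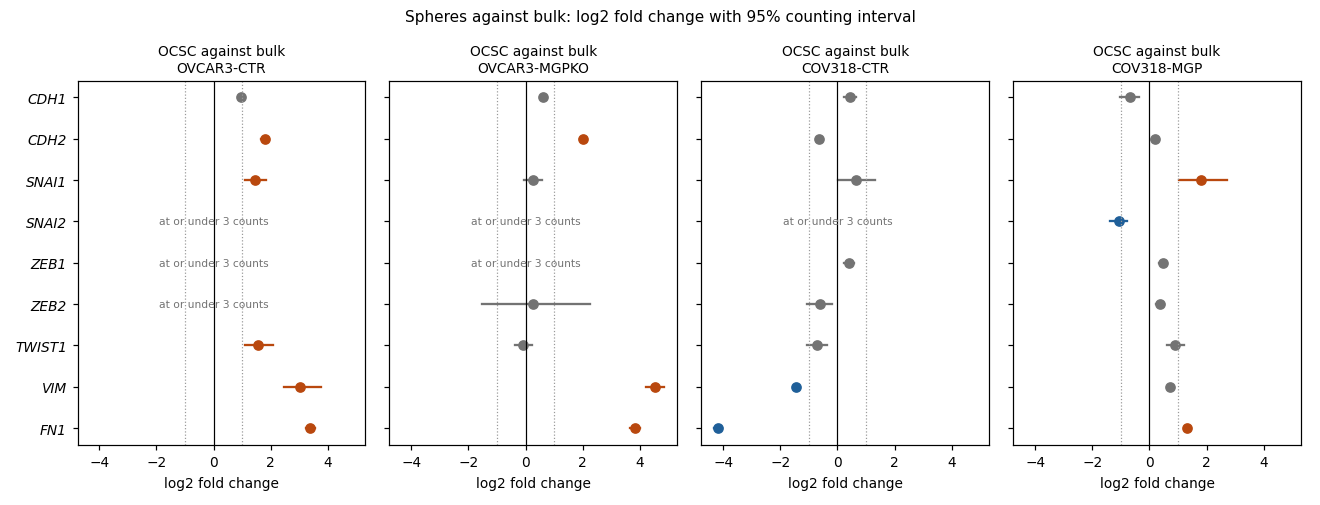
Log2 fold change of the 9 genes in OCSC against bulk in each of the 4 populations, with 95% counting intervals; orange points are at least 2-fold higher in OCSC, blue at least 2-fold lower, and dotted lines mark 2-fold. FN1 lies at 3.39 and 3.84 in OVCAR3, at -4.17 in COV318-CTR and at 1.33 in COV318-MGP.

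Over the 4 populations together, OCSC were compared with bulk in edgeR's quasi-likelihood test with population as a term, which left 3 residual degrees of freedom. The populations are not replicates of 1 condition, and an exact sign-flip test over 4 of them cannot give a two-sided p below 0.125. None of the 18377 genes tested passed an adjusted p of 0.05 (0%), 1370 of them (7.45%) had an unadjusted p under 0.05, and DESeq2's Wald test with the same design called 259. edgeR called 40 genes when COV318-MGP was left out. None of the 9 genes passed in any of these fits. SNAI1 was higher in OCSC in 4 of 4 populations, with a log2FC of 1.03 ± 0.39 (SE) and an edgeR adjusted p of 0.616. FN1 (1.72 ± 1.29), VIM (1.62 ± 0.94), CDH2 (0.83 ± 0.44) and CDH1 (0.34 ± 0.28) were higher in 3 of 4, with edgeR adjusted p of 0.874, 0.805, 0.765 and 0.892. Without COV318-CTR the log2FC of FN1 was 2.84 ± 0.51 and that of VIM 2.703 ± 0.73, with edgeR adjusted p of 0.358 and 0.571. Without COV318-MGP they were 2.01 ± 1.89 and 2.18 ± 1.29, and SNAI1 was at 0.77 ± 0.38. Without OVCAR3-CTR, FN1 was at 0.78 ± 1.503 and VIM at 1.02 ± 1.03, and without OVCAR3-MGPKO they were at 0.66 ± 1.46 and 0.62 ± 0.76, so that both values depend on which population is included. CDH2 ranged from 0.39 to 1.31 over these fits.

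Other genes of the pathway were taken from 7 lists chosen by function. Their counts are to be read against all genes tested, of which 24.5% were higher and 26.3% lower in COV318-MGP against COV318-CTR in bulk, and 27% and 27.3% in OCSC. In OVCAR3-MGPKO against OVCAR3-CTR these shares were 15.1% and 9% in bulk, and 9.17% and 5.69% in OCSC. Of the other EMT transcription factors, 9 of 10 were in the table. In COV318-MGP against COV318-CTR 6 of 9 were higher and 1 lower in bulk, and 8 of 9 higher and 0 lower in OCSC, with median log2FC of 2.33 and 2.50 beside -0.04 and 0.00 over all genes tested, the second being 2.45 with genes at 0 counts set at their bound. TCF4, a basic helix-loop-helix partner of TWIST factors, had 1374 counts against 277 in bulk and 512 against 26 in OCSC. FOXC1 was lower in OVCAR3-MGPKO than in OVCAR3-CTR, at -1.62 in bulk and -1.39 in OCSC, where the list as a whole had 2 higher and 1 lower of 6 in bulk and 1 and 1 of 6 in OCSC.

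In COV318-MGP most epithelial regulators were lower, beside the 26.3% and 27.3% of all genes. Of the 9 epithelial transcription and splicing factors, 6 were lower and 3 higher in bulk, and 5 of 7 lower and 1 higher in OCSC, with medians of -1.48 and -3.09. ESRP1 and ESRP2, which set epithelial splicing, had 8 against 533 and 17 against 885 counts in bulk, and 0 against 305 and 2 against 404 in OCSC. EHF, an ETS factor of epithelia, had 1 count against 1007 in bulk and 0 against 955 in OCSC. In OVCAR3-MGPKO 1 of 9 was higher (OVOL1, 3.01) and 1 lower (ESRP1, -1.26) in bulk, and 0 higher and 1 lower (EHF, -1.08) in OCSC.

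Epithelial junction and polarity genes were lower in COV318-MGP for 12 of 18 genes in bulk, with 2 higher, and for 11 of 17 in OCSC, with 0 higher, where 26.3% and 27.3% of all genes were lower. Their medians were -2.21 and -2.06, or -2.10 and -1.71 when genes at 0 counts were set at their bound. EPCAM had 47 counts against 2679 in bulk and 22 against 649 in OCSC, and MAL2, of apical transport, 541 against 8110 and 109 against 2627. In OVCAR3-MGPKO these genes were level, with 1 of 19 higher and 1 lower in bulk and 0 of 19 past 2-fold in OCSC, beside the lower CDH1. Among the cadherin partners, 1 of 10 was higher and 4 lower in COV318-MGP bulk, where plakoglobin (JUP) had 752 counts against 4749, and 1 of 10 higher and 2 lower in OCSC.

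Of 16 other classical cadherins listed, 10 were in the table. In COV318-MGP 4 of 10 were higher and 3 lower in bulk and 4 of 9 higher and 2 lower in OCSC, where 50.8% and 54.2% of all genes passed 2-fold in either direction. CDH2 was within 2-fold in both. CDH6, the kidney cadherin, had 5 counts against 26928 in bulk and 0 against 1921 in OCSC. CDH11, a mesenchymal cadherin, had 848 counts against 0 in bulk, and CDH7 had 624 against 1. In OVCAR3, CDH6 was higher in MGPKO bulk (1.39) and in CTR OCSC against bulk (1.46), and CDH12 had 227 counts in CTR OCSC against 9 in bulk and 234 against 7 in MGPKO.

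The mesenchymal matrix and cytoskeleton genes had their most one-sided counts in COV318-CTR OCSC against bulk. There 13 of 17 were lower and 0 higher, with a median of -2.79, where 10.1% of all genes were lower. TAGLN (113 counts against 24932) and SPARC (12 against 693) were among them. In COV318-MGP against COV318-CTR, 10 of 17 were lower and 2 higher in bulk (median -2.30), and 7 were higher and 6 lower in OCSC (median 0.64). SPARC, a collagen-binding matrix protein, had 3548 counts against 12 in the latter. In OVCAR3-MGPKO 8 of 15 were higher and 0 lower in bulk (median 1.01), led by LGALS1 (2.17) and MMP2 (1.83), where 15.1% of all genes were higher, while in OCSC, where VIM differed most, 3 of 16 were higher and 2 lower (median -0.11). OCSC against bulk gave 4 higher and 2 lower of 15 in OVCAR3-CTR, where 14.3% of all genes were higher and 13.2% lower. It gave 3 higher and 5 lower of 16 in OVCAR3-MGPKO, where these shares were 8.33% and 10.8%. In COV318-MGP it gave 5 higher and 0 lower of 17, where they were 10.3% and 9.36%. The fibroblast list of 8 genes, 7 in the table, summed to 5769 normalized counts in COV318-CTR bulk and 541 in its OCSC, and to 686 and 1084 in COV318-MGP. It had 5, 3, 5 and 5 genes above 3 counts in these libraries and shares 3 collagen genes with the mesenchymal list, and its part in these differences was not tested.

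Integrins that bind fibronectin differed from one another. In COV318-MGP against COV318-CTR, 3 of 7 were higher and 4 lower in bulk, and 3 higher and 3 lower in OCSC, where 50.8% and 54.2% of all genes passed 2-fold. ITGA4 and ITGA8 had 1930 and 2398 counts against 0 and 0 in bulk, and ITGA5 had 971 against 10 in OCSC. ITGB3 was lower, with 58 against 3098 in bulk and 28 against 536 in OCSC. ITGB3 was also lower in OVCAR3-MGPKO bulk (100 counts against 1115) and OCSC (507 against 1439), where FN1 was within 2-fold. In OCSC against bulk, 4 of 5 receptors were lower and 0 higher in COV318-CTR, beside its lower FN1. Of all genes, 10.1% were lower there. In OVCAR3-CTR, beside its higher FN1, 0 of 5 were higher and 2 lower, where 13.2% of all genes were lower. FN1 was also higher in OVCAR3-MGPKO, with 1 of 6 receptors higher and 3 lower, where 8.33% and 10.8% of all genes were. The same held for COV318-MGP, with 0 of 6 higher and 2 lower, where 9.36% of all genes were lower.

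In OCSC against bulk the remaining lists had these counts, most of them of 3 genes or fewer and not read as results. The shares of all genes higher and lower were 14.3% and 13.2% in OVCAR3-CTR, 8.33% and 10.8% in OVCAR3-MGPKO, 10.9% and 10.1% in COV318-CTR, and 10.3% and 9.36% in COV318-MGP. Other EMT factors had 1 gene higher and 1 lower of 6 in OVCAR3-CTR, OVCAR3-MGPKO and COV318-CTR, and 0 of 9 past 2-fold in COV318-MGP. Epithelial regulators had 2 higher and 0 lower of 9 in OVCAR3-CTR, 0 and 1 of 9 in OVCAR3-MGPKO, 2 and 0 of 8 in COV318-CTR, and 1 and 3 of 7 in COV318-MGP. Epithelial junction genes had 2 higher and 1 lower of 19, 1 and 0 of 19, 5 and 1 of 17, and 3 and 1 of 16 in the same order. Other cadherins had 3 higher and 0 lower of 5, 1 and 1 of 6, 1 and 3 of 8, and 0 and 5 of 9, and cadherin partners 3 and 0 of 10, 1 and 1 of 10, 0 and 0 of 9, and 2 and 0 of 10.

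The miR-200 family is known to target ZEB1 and ZEB2 RNA, and its loci were looked up after their values were seen. Its members fall into 2 seed groups, shown from the 5′ end with the seed, bases 2 to 8, in capitals (RefSeq, GRCh38.p14).
hsa-miR-200b-3p: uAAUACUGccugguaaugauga
hsa-miR-200c-3p: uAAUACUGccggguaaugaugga
hsa-miR-429: uAAUACUGucugguaaaaccgu
hsa-miR-200a-3p: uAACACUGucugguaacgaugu
hsa-miR-141-3p: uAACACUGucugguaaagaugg
MIR200CHG, the host transcript of the cluster on chromosome 12, had 38, 83, 113 and 96 counts in the OVCAR3 libraries and 0, 2, 0 and 0 in the COV318 libraries. The MIR200A locus on chromosome 1 had 11 to 19 counts in OVCAR3 and 0 to 2 in COV318. The loci had counts where ZEB1 and ZEB2 were near their floor and few or none where these were present. That is a split between the 2 lines, which 31.5% of all genes showed, and 60.4% without the COV318-MGP libraries. A link between these loci and ZEB1 or ZEB2 was not tested. These are counts over gene rows, and the mature miRNAs were not measured.

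For each of the 9 genes, the genes most like it were sought by Pearson's r of log2(normalized count + 1) over the 8 libraries among 13075 genes with a mean of at least 50. These values describe 8 points that share lines, arms and cultures. CDH1 was closest to EPHB6 (0.994), IL1R2 (0.992) and the tight junction gene MARVELD3 (0.991). CDH2 was closest to CDH12 (0.975), another classical cadherin, RTN3 (0.975) and NR3C2 (0.969). SNAI1 was closest to TFAP2A (0.994), KIAA2026 (0.990) and GSN (0.989). SNAI2 was closest to SLITRK3 (0.99999), TBX3 (0.999) and POU3F3 (0.997). It had 0 or 1 counts outside the COV318-MGP libraries, so its r mainly sets those libraries against the rest. ZEB2 was closest to NENF, FKBP1B and DESI2 (all 0.992), and ZEB1 to ATM (0.9996), ROBO3 (0.998) and LINC01876 (0.997). With 0 or 1 counts of ZEB1 in OVCAR3, its r mainly reflects the split between the lines. FN1 (ATP6AP1, 0.914) and TWIST1 (SPTBN1, 0.945) had no gene as close, and VIM was closest to NUDCD2 (0.990).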

How the data were processed

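Per the labels and the study's methods, RNA was read as paired 50-base reads, aligned to hg38 with STAR 2.7.5c, counted per gene and scaled by DESeq2's median of ratios. The annotation and strand setting are not given in the sources used here, and several kits are named without saying which was used. The deposited count table holds whole reads per gene, and the signal values the authors deposited beside it are those counts divided by size factors. These were recomputed from the counts (largest relative difference 7.55e-10). Both hold 20339 genes, each with at least 10 counts in 1 library.

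Groups came from the labels. Fold changes used a pseudocount of 1, a 2-fold call and a floor of 3 counts per library, with exact Clopper-Pearson intervals (scipy 1.17.1) that cover counting error only. Cultures were compared by edgeR 4.0.16 (TMM scaling, filterByExpr, quasi-likelihood test, Benjamini-Hochberg adjustment), with DESeq2 1.42.0 as an alternative. Both calculations were tested on simulated data first. The SE printed for edgeR was taken as the size of the log2FC divided by the square root of the F statistic. Alternatives changed scaling, pseudocount, threshold, filter, tool and populations. The 9 genes and all lists (7 functional, 4 of markers) were chosen with earlier results of these data known. Named list genes were at most 4 per list and comparison with the largest fold changes among those with 50 or more normalized counts in 1 of the 2 libraries, and genes most alike were the 3 with the highest r.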

Additional observations from a re-analysis of the deposited data

Results flagged for a closer look

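FN1 and VIM differed in opposite directions under the same contrast, with 1 library on each side, so the differences between groups were not tested. For FN1 the log2 fold change of COV318-MGP against COV318-CTR was -2.10 in bulk and 3.40 in OCSC. FN1 in OCSC against bulk stood at 3.39 in OVCAR3-CTR, 3.84 in OVCAR3-MGPKO and 1.33 in COV318-MGP, and at -4.17 in COV318-CTR. For VIM the same contrast gave 3.03 in OVCAR3-CTR and 4.52 in OVCAR3-MGPKO, and -1.45 in COV318-CTR. Both FN1 contrasts in COV318 and the VIM contrast use COV318-CTR libraries, which are therefore not separate observations.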

How the results depend on the processing

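The comparison of cultures is paired by population, and with no population block edgeR called 0 genes, 142 had an unadjusted p under 0.05 and SNAI1 was at 0.94 (unadjusted p = 0.357, edgeR quasi-likelihood test). The comparisons of 2 libraries have no pairs. Of 429 values of the 9 genes recomputed under the alternatives, 30 moved beyond their counting interval, 0 past 2-fold reversed and 3 crossed the 2-fold line. These 3 were CDH1 in OVCAR3-MGPKO OCSC (-0.95 with scaling to totals), ZEB2 there (0.62 with a pseudocount of 5) and ZEB1 in COV318-MGP bulk (1.10 with scaling to totals). Some values within 2-fold did change sign with scaling to totals. So scaled, CDH1 stood at 13.99 in COV318-MGP bulk and 13.50 in COV318-CTR bulk, against a main log2FC of -0.25. CDH2 stood at 295.6 and 285.6 in the same libraries, also against -0.25. In OVCAR3 bulk, CDH2 stood at 57.0 in MGPKO and 54.2 in CTR, against -0.07. With a call at a log2 fold change of 1.5, 1 of the 9 genes remained called for MGPKO against CTR in OVCAR3 bulk (from 2) and OCSC (from 3), and for OCSC against bulk in COV318-CTR (from 2) and COV318-MGP (from 3). Scaling to totals shifted the median of all genes by 0.29 for the arms in COV318 bulk and by -0.21 for the cultures in COV318-MGP, and TMM by 0.10 and -0.12. Over the 4 populations, the number of genes called for culture was 0, 259 with DESeq2, 15 without a filter on low counts, and 0 to 40 when 1 population was left out, the 40 without COV318-MGP. Beyond the choice of tool, filter or population, the cause was not tested. The lines of 5 of the 9 genes did not overlap under TMM, with scaling to totals, or without COV318-MGP, alternatives chosen after seeing the data. Counts below about 10, as for ZEB2 in OVCAR3, do not resolve a 2-fold difference.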
